A study of Homo sapiens with 14 samples.

Results

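The genes described here are 10 regulators of histone lysine and DNA methylation: NSD2, KMT2C, KMT2D, DOT1L, EZH2, EZH1, DNMT1, DNMT3A, DNMT3B and TET2. Chromatin accessibility was measured by Omni-ATAC, in which a transposase cuts open chromatin and leaves adapters there, in 14 libraries of the human multiple myeloma (MM) cell lines MM.1S and RPMI8226. MM.1S gave 3 libraries from cells grown alone (MONO), 3 from cells of the upper transwell above HS5 bone marrow stromal cells (TSW) and 3 from cells in the lower chamber in contact with HS5 cells (CO). RPMI8226 gave 1 MONO, 2 TSW and 2 CO libraries. All MM cells were sorted as CD90-CD38+ cells, and each line, HS5 included, is 1 established cell line. The deposited data are 1 reference peak list per MM line, with the 3 culture conditions pooled and a minimum of 3 libraries per peak. Each peak carries 1 whole number, read here as support, the number of libraries of the line in which it was called, which ran from 3 to 9 in MM.1S and from 3 to 5 in RPMI8226. The members are the peaks that lie in the GENCODE body of the 10 genes or within 50 kb on either side. They numbered 120 of the 72802 MM.1S peaks and 112 of the 79969 RPMI8226 peaks, over windows that add up to 2038 kb. The lists hold no value for a single library and no read counts, so that nothing below compares MONO, TSW and CO. Read totals that the study states per library entered no value here. By its totals of uniquely mapped, non-redundant read pairs, 1 MM.1S MONO library was by far the shallowest of the 14. Each of the other MM.1S libraries was deeper than any RPMI8226 library. Whether a support below the number of libraries, or a difference between the lists, goes with depth was not tested.

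Methyl groups on histone tails and on cytosines mark which parts of the genome are transcribed, poised or silent. NSD2 dimethylates histone H3 in active chromatin, KMT2C and KMT2D place the monomethyl mark of enhancers, and DOT1L methylates histone H3 within transcribed genes. EZH2 and EZH1 are the alternative catalytic subunits of the Polycomb repressive complex PRC2, which places a repressive trimethyl mark. DNMT1 copies DNA methylation after replication, DNMT3A and DNMT3B methylate DNA de novo, and TET2 oxidises methylcytosine on the way to its removal. Several of these genes are altered in blood cancers, among them NSD2 through a recurrent translocation in myeloma and DNMT3A and TET2 through mutation in myeloid disease.

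The sequences that carry the differences between the lines, and shared peaks for comparison, are given first. Each is the central 200 bp of a peak on the plus strand of hg38, and capitals mark matches on either strand to 8 consensus motifs. These are AP-1 (TGACTCA), ATF::CEBP (TGATGCAA), ISRE (GAAANNGAA), ETS (CCGGAAGT), NFY (CCAAT), STAT3 (TTCCNGGAA), YY1 (AAGATGGCG) and CTCF, where N is any base. Lines without capitals hold no match in this window. Peaks whose central window touches an annotated untranslated exon are described below without sequence.
TET2 exon, MM.1S only, chr4:105236674-105236873: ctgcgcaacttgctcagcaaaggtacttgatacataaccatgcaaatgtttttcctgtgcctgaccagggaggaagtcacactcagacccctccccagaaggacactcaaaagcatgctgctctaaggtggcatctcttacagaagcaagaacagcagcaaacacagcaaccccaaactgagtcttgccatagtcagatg
TET2 downstream, shared, chr4:105306329-105306528: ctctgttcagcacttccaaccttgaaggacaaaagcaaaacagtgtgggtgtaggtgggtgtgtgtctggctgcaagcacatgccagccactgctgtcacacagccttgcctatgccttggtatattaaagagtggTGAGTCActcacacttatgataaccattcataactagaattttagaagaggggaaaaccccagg
EZH2 downstream, MM.1S only, chr7:148773430-148773629: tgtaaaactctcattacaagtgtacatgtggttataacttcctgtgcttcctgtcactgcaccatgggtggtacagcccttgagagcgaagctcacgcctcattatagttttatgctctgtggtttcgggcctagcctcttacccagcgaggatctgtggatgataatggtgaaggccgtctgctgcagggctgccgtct
NSD2 intron, MM.1S only, chr4:1907902-1908101: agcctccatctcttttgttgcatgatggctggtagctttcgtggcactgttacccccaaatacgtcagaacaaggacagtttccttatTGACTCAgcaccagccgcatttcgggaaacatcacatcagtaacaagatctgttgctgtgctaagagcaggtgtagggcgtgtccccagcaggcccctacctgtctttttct
KMT2C intron, RPMI8226 only, chr7:152392427-152392626: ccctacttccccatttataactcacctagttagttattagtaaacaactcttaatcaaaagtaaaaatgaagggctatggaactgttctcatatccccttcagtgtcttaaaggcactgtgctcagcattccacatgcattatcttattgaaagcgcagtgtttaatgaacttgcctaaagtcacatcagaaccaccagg
DOT1L intron, RPMI8226 only, chr19:2227682-2227881: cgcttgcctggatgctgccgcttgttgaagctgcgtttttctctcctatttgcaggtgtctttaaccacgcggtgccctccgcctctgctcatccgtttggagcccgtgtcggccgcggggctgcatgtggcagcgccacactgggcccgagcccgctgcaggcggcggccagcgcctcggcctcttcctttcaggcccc
DNMT3A internal start, MM.1S only, chr2:25277280-25277479: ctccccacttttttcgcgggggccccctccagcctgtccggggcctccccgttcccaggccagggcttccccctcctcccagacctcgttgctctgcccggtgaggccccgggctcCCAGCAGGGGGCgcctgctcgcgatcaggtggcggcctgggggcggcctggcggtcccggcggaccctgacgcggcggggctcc
DNMT3A downstream, shared, chr2:25210332-25210531: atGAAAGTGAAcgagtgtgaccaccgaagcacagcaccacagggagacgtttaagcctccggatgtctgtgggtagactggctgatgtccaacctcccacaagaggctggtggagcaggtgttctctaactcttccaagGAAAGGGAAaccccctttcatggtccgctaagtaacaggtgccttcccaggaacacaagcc
The TET2 exon, EZH2 and NSD2 sequences come from MM.1S peaks with no RPMI8226 counterpart. The TET2 downstream sequence and the DNMT3A downstream sequence come from peaks found in both lines, and these hold an AP-1 match and a pair of ISRE matches. None of the line-only peaks printed for the TET2 exon, EZH2, KMT2C and DOT1L, all called in every library of their line, held a match in the central window. The line-only peaks printed for NSD2 and DNMT3A, each with support 8 in MM.1S, held an AP-1 match and a CTCF match. Other line-only peaks called in every library are not printed, so that these sequences do not set line-only against shared peaks.

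All 10 regulators were open at their main promoter in both lines. The peak at the canonical start site, within 2500 bp of it, was called in 9 of 9 MM.1S libraries and in 5 of 5 RPMI8226 libraries for each of the 10 genes, and each of these peaks overlapped a peak of the other line. Over 20033 protein-coding genes, 56.4% had a canonical promoter peak called in every library of both lines. Of 36 other regulators of histone lysine and DNA methylation, 34 did. The DNMT3A promoter peak of MM.1S, 1049 bp wide, overlapped 2 RPMI8226 peaks, of 486 bp with support 5 and of 158 bp with support 4. The narrower of these covers the canonical start itself. The EZH2 promoter peak was 1771 bp wide in MM.1S and 900 bp in RPMI8226. For KMT2D the widths were 1555 bp and 1445 bp.

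**Figure D1:**
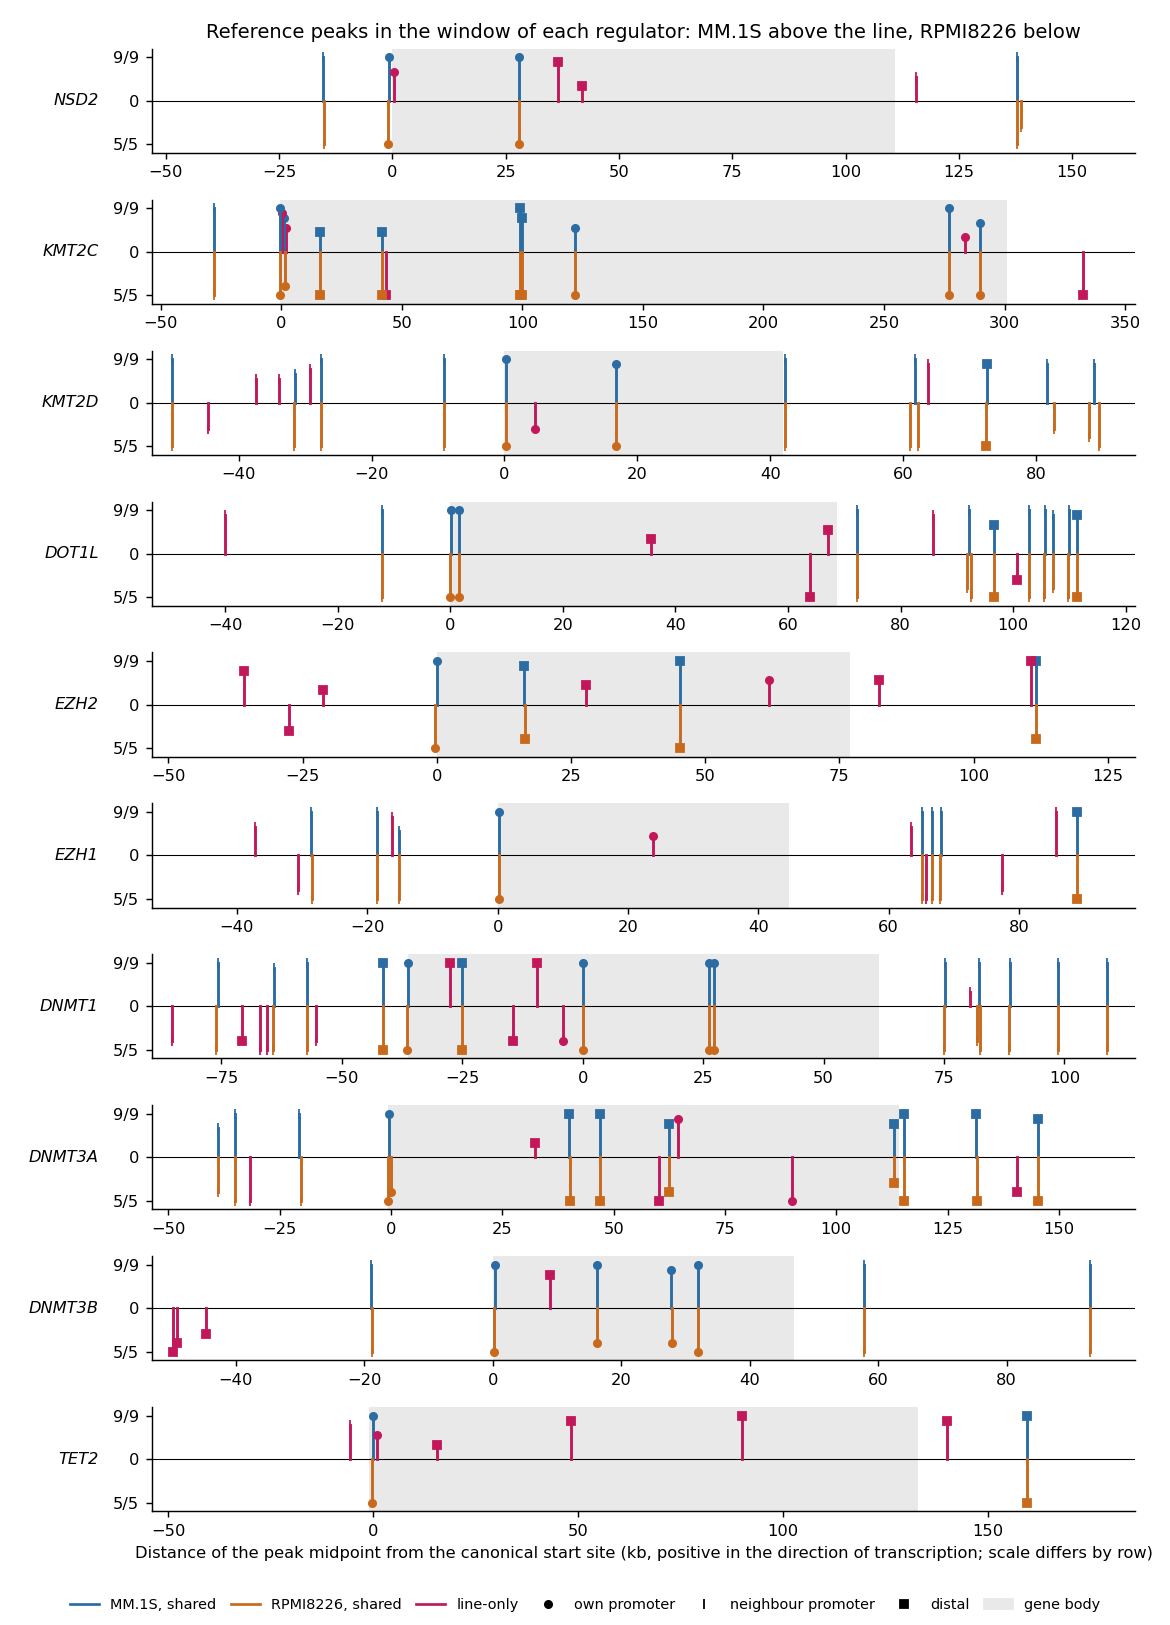
Reference peaks in the window of each of the 10 regulators, by distance of the peak midpoint from the canonical start site in kb, positive in the direction of transcription. Stems show support as a share of the 9 MM.1S libraries (upward) and the 5 RPMI8226 libraries (downward), circles are promoter peaks of the gene itself, ticks those of neighbouring genes and squares distal peaks, and pink marks line-only peaks. All 10 genes have full-height blue and orange circles at 0 kb, whereas the TET2 row has 6 pink stems above the line and none below.

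The 10 windows differed in how their peak numbers compared between the lines. TET2 and EZH2 held more peaks in MM.1S, and KMT2C, KMT2D and DOT1L differed by at most 1 peak. Differences were small as well for EZH1, with 13 peaks in MM.1S and 11 in RPMI8226, and for DNMT3B, with 8 and 10. DNMT3A held 13 and 16. NSD2 held 8 peaks in MM.1S and 5 in RPMI8226. TET2 held 8 and 2 and EZH2 10 and 5, ratios of 4 and 2 in favour of MM.1S. These were the only members that reached a ratio of 2, a cut-off chosen after the values were seen. Among 17476 protein-coding windows with at least 5 peaks in the lists together, 6.93% held at least 2 times as many MM.1S peaks and 7.59% at least 2 times as many RPMI8226 peaks. Among these windows the TET2 ratio stood at percentile 99.2 and the EZH2 ratio at percentile 94.4. DNMT1 had the lowest ratio of the members, 0.773, with 17 and 22 peaks. Among the same windows the ratios of DNMT1, DNMT3A and DNMT3B stood at percentiles 26.9, 31.8 and 30.0, and that of EZH1 at 70.2, none of them near an end. The small differences turned with the window. In gene bodies alone MM.1S minus RPMI8226 was 0 peaks for DNMT1, -1 for DNMT3A and 1 for DNMT3B, against -5, -3 and -2 with the 50 kb flanks. Among peaks called in every library the NSD2 difference was 0 and that of KMT2C -7.

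**Figure D2:**
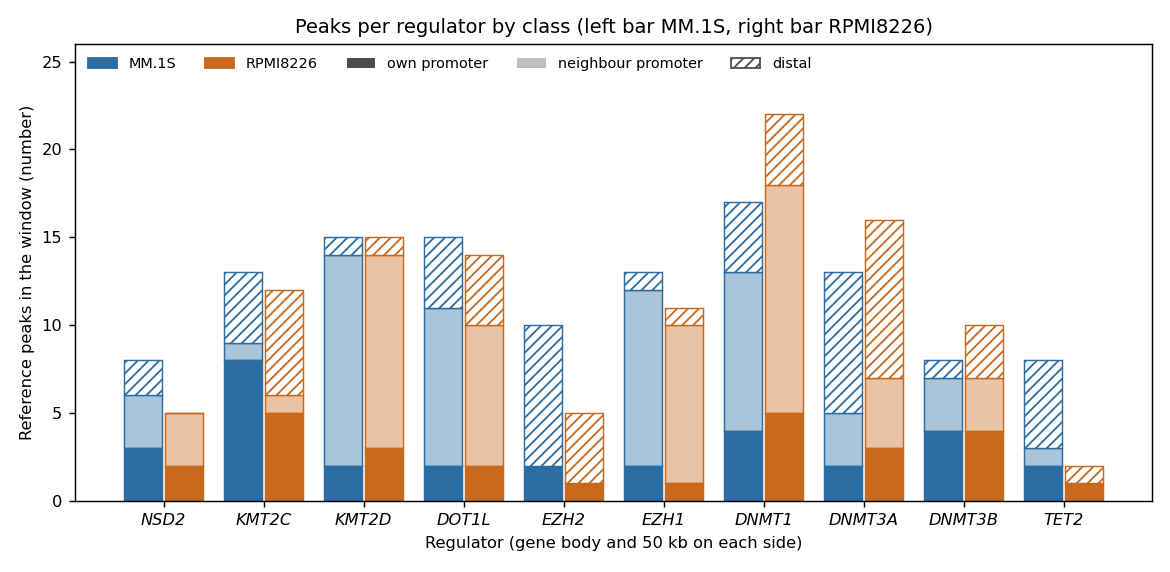
Number of reference peaks in the window of each regulator in MM.1S (blue, left bar) and RPMI8226 (orange, right bar), split into promoter peaks of the gene itself (solid), promoter peaks of neighbouring genes (pale) and distal peaks (hatched). TET2 and EZH2 show the tallest blue bars relative to orange, 8 against 2 and 10 against 5, and DNMT1 the tallest orange bar, 22 peaks.

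Of the 120 MM.1S peaks, 31 lay at a start site of the member, 51 at a start site of a neighbouring gene and 38 were distal. Of the 112 RPMI8226 peaks the numbers were 27, 52 and 33. Promoter peaks therefore made up 68.3% and 70.5% of the peaks in these windows, against 39.2% of the whole MM.1S list and 36.0% of the whole RPMI8226 list. The windows are centred on genes and some are crowded with other genes. KMT2D, DOT1L, EZH1 and DNMT1 had 7 to 9 other protein-coding genes in the window and 8 to 13 neighbour promoter peaks in each line, whereas the TET2 window held no other protein-coding gene. The median window held 13 MM.1S peaks and 11.5 RPMI8226 peaks, where the median over all protein-coding genes was 6 and 7. Per 100 kb of window the medians were 5.85 and 7.13, against 4.22 and 4.42. The spread among members was wide. It ran from 3.24 for KMT2C to 10.6 for KMT2D in MM.1S, and from 0.855 for TET2 to 11.1 for DNMT1 in RPMI8226.

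**Figure D3:**
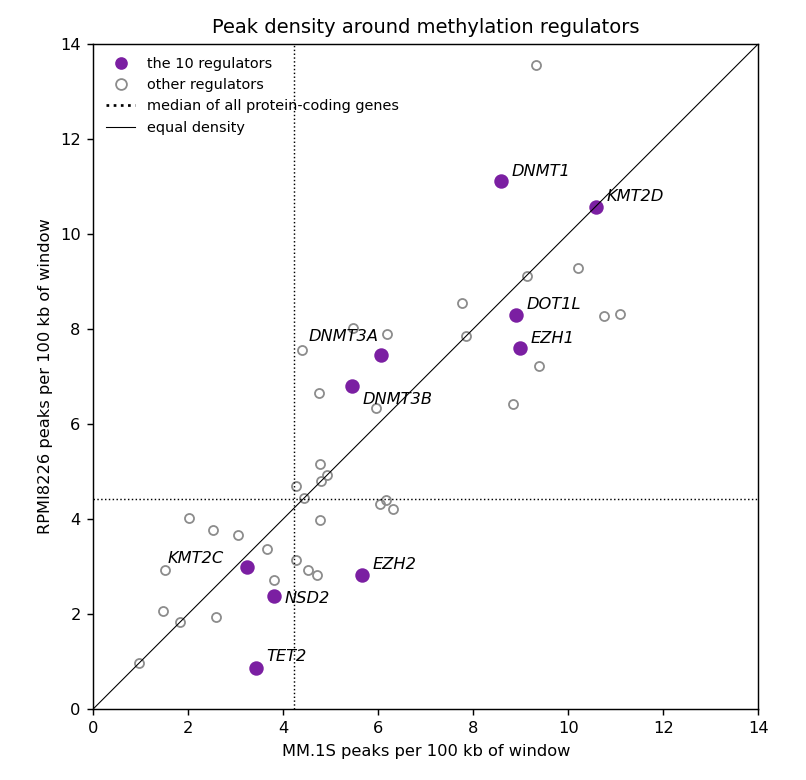
Peaks per 100 kb of window in MM.1S (horizontal axis) and RPMI8226 (vertical axis) for the 10 regulators (purple) and 36 other regulators of histone lysine and DNA methylation (open circles). TET2 sits at 3.42 and 0.855, below the line of equal density, and DNMT1 sits at 8.59 and 11.1, above it.

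Most member peaks were shared between the lines. Of the member peaks, 82 of 120 in MM.1S (68.3%, 95% Wilson interval 59.6 to 76.0) and 88 of 112 in RPMI8226 (78.6%, 70.1 to 85.2) overlapped a peak of the other line by at least 1 bp. Over the whole lists 64.6% and 62.0% did. Split by class, 74.4% of member promoter peaks in MM.1S and 84.8% in RPMI8226 were shared, against 71.8% and 76.6% of all promoter peaks. Distal member peaks were shared in 21 of 38 cases in MM.1S (55.3%, 39.7 to 69.9) and 21 of 33 in RPMI8226 (63.6%, 46.6 to 77.8), against 60.0% and 53.7% of all distal peaks. Within a class the intervals of the distal shares held the value of the whole list in both lines, as did that of the MM.1S promoter share. The interval of the RPMI8226 promoter share, 75.3 to 91.1, held it as well. The intervals cover counting error only, and neighbouring peaks are not independent of each other.

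Most peaks were also called in every library of their line. In MM.1S, 65 of 120 member peaks (54.2%, 45.3 to 62.8) were called in all 9 libraries, against 52.0% of the list. Within a class the MM.1S shares were nominally below those of the list, 61.0% of promoter peaks (50.2 to 70.8), against 67.5%, and 39.5% of distal peaks (25.6 to 55.3), against 42.0%, and both intervals held the value of the list. In RPMI8226, 83 of 112 (74.1%, 65.3 to 81.3) were called in all 5 libraries, against 64.1%. Within a class the RPMI8226 shares were 77.2% of promoter peaks (66.8 to 85.1), against 74.2%, and 66.7% of distal peaks (49.6 to 80.2), against 58.5%, so that both intervals held the value of the list. A further 7 and 8 peaks had the minimum support of 3. With 3 MM.1S libraries per condition, any peak with support above 6 was called at least once in MONO, TSW and CO, which held for 92 of the 120 peaks. The other 28 could have been absent from at least 1 condition. In RPMI8226, with 1 MONO library, 29 peaks had support below 5 and could have been absent from MONO. The 8 of these with support 3 could instead have been absent from TSW or from CO. Which libraries lack a peak is not recorded in the lists.

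**Figure D4:**
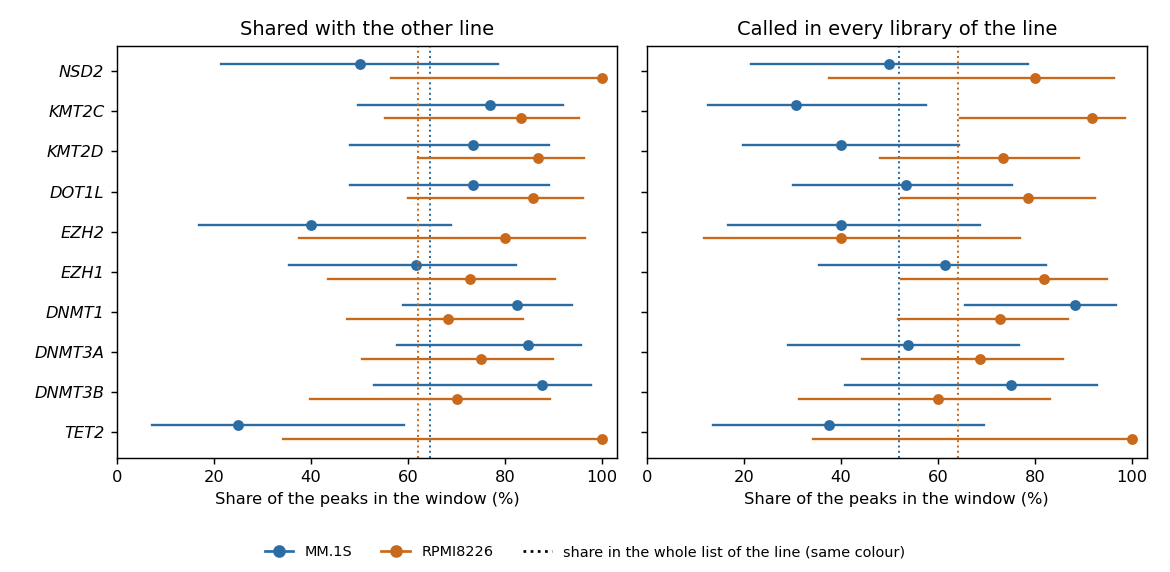
Share of the peaks in each window that overlap a peak of the other line (left) and that were called in every library of their own line (right), in percent, for MM.1S (blue) and RPMI8226 (orange). Bars are 95% Wilson intervals and dotted lines the share in the whole list of the line. TET2 has the lowest share of shared MM.1S peaks, 25.0%, and its interval, 7.15 to 59.1, ends below the MM.1S list value of 64.6%. That interval holds the share among all MM.1S peaks of chromosome 4, where TET2 lies, which was 54.7%.

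NSD2 (chromosome 4, 1871393 to 1982207, plus strand) was open at its canonical start and at an internal start in both lines. The promoter peak spanned 1870049-1871352 in MM.1S and 1870160-1870896 in RPMI8226, with full support. The second site lay 27.94 kb into the gene, in intron 1 of the canonical transcript and at the start of 5 other NSD2 transcripts, and was called in 9 of 9 MM.1S and 5 of 5 RPMI8226 libraries. No distal peak was found in RPMI8226. MM.1S had a run of 3 consecutive line-only peaks, of which 2 were distal and lay in intron 3. The first, 1907666-1908337, was 672 bp wide, had support 8 and holds the AP-1 match printed above. The second, 1913144-1913388, had support 3 and holds a CTCF match. The third, at 1986569-1987093, lay at a start site of NELFA and MIR943 and had support 5. The promoter peak of LETM1 was shared and fully supported. The other NELFA promoter peak of MM.1S, with support 9, was matched by 2 RPMI8226 peaks with support 5 and 3. Outside the window, but within 1 Mb of the gene, the lists held 113 and 97 peaks.

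KMT2C (chromosome 7, 152134922 to 152436644, minus strand), a catalytic subunit of the enhancer-associated COMPASS-like complex, held 13 MM.1S and 12 RPMI8226 peaks over the longest of the windows, 401.7 kb. Every distal MM.1S peak, 4 of 4, was also found in RPMI8226. The pair at 98.96 and 99.78 kb from the start, in intron 2, had support 9 and 7 in MM.1S and 5 and 5 in RPMI8226. In MM.1S 4 of 13 peaks (30.8%, 12.7 to 57.6) were called in all 9 libraries, against 52.0% of the list, which the interval holds. In RPMI8226 11 of 12 (91.7%, 64.6 to 98.5) were called in all 5, against 64.1%, just below the interval. Full support asks for 9 libraries in MM.1S and for 5 in RPMI8226, so that the shares of the lines are not like measures. Both distal peaks found only in RPMI8226 had full support. The first lay in intron 1 at 152392394-152392659, 1578 bp from the nearest MM.1S peak, and the second downstream in GALNT11 at 152103124-152103402, 23569 bp from the nearest MM.1S peak. Within 2500 bp of the canonical start MM.1S had 4 peaks and RPMI8226 2. Parts of KMT2C have near-identical copies elsewhere in the genome, and reads that mapped to several places were left out by the authors. Open chromatin in such parts may therefore be missing from the lists, which was not tested.

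KMT2D (chromosome 12, 49018975 to 49060794, minus strand), the paralogue of KMT2C, lay in the densest MM.1S window, with 15 peaks in each line or 10.6 per 100 kb. Most belonged to neighbours, 12 in MM.1S and 11 in RPMI8226. KMT2D itself had its promoter peak, 49059750-49061304 in MM.1S and 49059846-49061290 in RPMI8226, and an internal peak in intron 22 with support 8 and 5. RPMI8226 had a further line-only peak of 150 bp in intron 1 with the minimum support of 3. The only distal peak of the window, 48987861-48988515 in MM.1S and 48988192-48988515 in RPMI8226, was shared and holds a CTCF match. A promoter peak of WNT1 in this window, 48977836-48980496, was the widest member peak, 2661 bp in MM.1S, and was matched by a single RPMI8226 peak of 199 bp.

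DOT1L (chromosome 19, 2163933 to 2232578, plus strand), the only known methyltransferase for its histone H3 residue, had the same pair of promoter peaks in both lines, at the start site and in intron 1 1.54 kb from it in MM.1S, all with full support. Between these and the end of the gene each line had peaks of its own. RPMI8226 had a peak of 700 bp in intron 27 at 2227432-2228131 in 5 of 5 libraries. Its GC content was 72.3%, the nearest MM.1S peak lay 2807 bp away, and that peak, in the last exon, exon 28, had support 5 of 9. MM.1S had a second line-only distal peak in intron 7 with the minimum support of 3. Of the 4 distal peaks in each line, 2 were shared, and both lay downstream among the neighbouring genes.

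EZH2 (chromosome 7, 148807257 to 148884321, minus strand) was open at its promoter and at 3 distal sites in both lines, and the lines differed in the remainder. The shared distal peaks lay in intron 1, in intron 3 and downstream in CUL1, with support 8, 9 and 9 in MM.1S and 4, 5 and 4 in RPMI8226. MM.1S had 6 line-only peaks, 5 of them distal. The only one called in every MM.1S library was 148773332-148773728, within CUL1 and 110.8 kb from the EZH2 start, and it lay 449 bp from the nearest RPMI8226 peak. It opened a run of 3 line-only peaks that reached to 148822744. The other members of the run, at 148801428-148802421 downstream of EZH2 and at 148822231-148822744 in intron 8, each had support 5. RPMI8226 had 1 line-only peak, -27.52 kb from the start, where negative distances lie upstream, with the minimum support of 3. The excess of MM.1S peaks depended on the window. It was 5 against 3 peaks in the gene body alone, 6 against 3 with a 20 kb flank, and 20 against 22 with a 100 kb flank. Among peaks no narrower than their list's median it was 4 against 3, and among peaks called in every library 4 against 2.

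EZH1 (chromosome 17, 42700275 to 42745049, minus strand), the paralogue that serves PRC2 in resting cells, had few peaks of its own, 2 in MM.1S and 1 in RPMI8226. The promoter peak was nearly the same in extent, 954 and 861 bp, and fully supported. The additional MM.1S peak in intron 6, 42721108-42721308, had support 4. The window's only distal peak, 42655971-42656340 in MM.1S, was shared with full support in both lines, at 88.88 kb from the start, and holds an ISRE match. The remaining 10 MM.1S and 9 RPMI8226 peaks belonged to promoters of neighbours such as CNTNAP1, RAMP2 and VPS25. A TUBG2 promoter peak, 42659069-42659769, was found in MM.1S only, in 9 of 9 libraries and 2727 bp from the nearest RPMI8226 peak.

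DNMT1 (chromosome 19, 10133342 to 10231286, minus strand) had the most peaks of the 10 genes in both lines and the highest share with full support in MM.1S. In MM.1S 15 of 17 peaks (88.2%, 65.7 to 96.7) were called in all 9 libraries, against 52.0% of the list. Of the 17, 4 were promoter peaks of DNMT1 and 9 of neighbouring genes. Among all MM.1S promoter peaks 67.5% were called in every library, a value that the interval holds. Both lines shared the peak at the canonical start, a pair of peaks in introns 9 and 10 near the start of other transcripts, and a peak at the outermost DNMT1 start site, -36.33 kb from the canonical start. That outermost peak lay within S1PR2 and also at start sites of S1PR2 and MIR4322, and it is counted here as a DNMT1 promoter peak. MM.1S had 2 line-only distal peaks between the outer and the canonical start, and both were called in 9 of 9 libraries. They spanned 10203805-10204976, 1172 bp wide and 4284 bp from the nearest RPMI8226 peak, and 10222117-10222849, within S1PR2 and 1930 bp from the nearest RPMI8226 peak. RPMI8226 had line-only peaks in the same interval at 10198913-10199115, near the start of other DNMT1 transcripts, and at 10209261-10209551, each with support 4. Outside the gene RPMI8226 had a run of 3 line-only peaks, 10260114-10265649, within the non-coding gene LIMASI near ICAM1, with support 4 to 5.

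DNMT3A (chromosome 2, 25227855 to 25342590, minus strand) had 8 distal peaks in MM.1S, as many as EZH2, and 9 in RPMI8226, the most of the 10 genes there, and 7 of them were shared in each list. Widest was a peak in intron 3, 46.87 kb from the start, of 1143 bp in MM.1S and 871 bp in RPMI8226. A neighbour in intron 2 was 943 and 749 bp wide, and both were called in every library of both lines. The 3 shared peaks downstream of the gene, at 115.30, 131.49 and 145.35 kb from the start, all hold ISRE matches, of which the middle one is printed above. The lines differed at internal start sites. RPMI8226 had a peak at 25251649-25252281, in intron 6 of the canonical transcript and at the start of 4 other DNMT3A transcripts, in 5 of 5 libraries. The nearest MM.1S peak lay 22450 bp away. MM.1S had a peak at 25277149-25277610, in intron 4 and within 2500 bp of the start of 1 transcript, in 8 of 9 libraries. It has a GC content of 70.8% and holds a CTCF match, and the nearest RPMI8226 peak lay 1712 bp away. RPMI8226 had a further line-only peak in intron 4, 25281671-25281869, only 199 bp wide but called in 5 of 5 libraries.

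DNMT3B (chromosome 20, 32762385 to 32809359, plus strand) had 4 promoter peaks of its own in each line, and all 4 were shared. They lay at the canonical start and at 16.23, 27.83 and 32.03 kb from it, the last 3 near the start of other transcripts. Support was 9, 9, 8 and 9 in MM.1S and 5, 4, 4 and 5 in RPMI8226. The distal peaks, in contrast, were all line-only. MM.1S had a single one in intron 1, 32771105-32771463, with support 7 and an ISRE match. RPMI8226 had a run of 3 upstream, within COMMD7, with support 5, 4 and 3. The first of these was called in every RPMI8226 library and lay 9021 bp from the nearest MM.1S peak.

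TET2 (chromosome 4, 105145875 to 105279816, plus strand) showed the highest ratio between the lines of the 10 genes. RPMI8226 had 2 peaks in the 233.9 kb window, the promoter peak 105146222-105146986 and a downstream peak 105306210-105306831, both called in 5 of 5 libraries. Both were also found in MM.1S, in 9 of 9 libraries. MM.1S had 6 further peaks, none of which overlapped an RPMI8226 peak. The outermost lay at -5.75 kb from the canonical start, near the start of another gene (ENSG00000251259), and the other 5 formed a run of consecutive line-only peaks over 139.8 kb, the longest run in the member windows. They were a promoter peak 467 bp from the RPMI8226 promoter peak (support 5), 2 intronic peaks (105162258-105162647 in intron 1, support 3, and 105194797-105195252 in intron 2, support 8), an exonic peak and a downstream peak (105286794-105287219, support 8). The exonic peak, 105236360-105237188, lay in exon 3 at 89.90 kb from the start, was 829 bp wide and was the only line-only TET2 peak in all 9 libraries. The nearest RPMI8226 peak lay 69021 bp away. Outside the window, but within 1 Mb of the gene, the lists held 35 and 29 peaks, a ratio of 1.21, and over chromosome 4 3528 and 3320, a ratio of 1.06. With a 20 kb flank the numbers were 7 and 1, with a 100 kb flank 9 and 6, and among peaks called in every library 3 and 2, so that the ratio fell under 2 with the wide flank. The last of these holds 5 peaks in all, which is the minimum for a ratio, and its ratio was also under 2.

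Peaks that matched one to one between the lines were mostly wider in MM.1S. There were 76 such pairs among the members, with median widths of 662.5 bp in MM.1S and 508 bp in RPMI8226, and MM.1S was wider in 62 (81.6%, 71.4 to 88.7). The whole lists gave the same share, 81.6% of 44631 pairs, so that the width difference was not a feature of these genes. Open sequence per kb of window was higher in MM.1S for all 10 genes, by ratios from 1.21 (DNMT3B) to 3.59 (TET2), against a ratio of 1.32 for the whole lists. DNMT3A, DNMT3B and KMT2C lay below that value and the other 7 above it. After TET2 came EZH2 with 2.84 and NSD2 with 1.91.

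**Figure D5:**
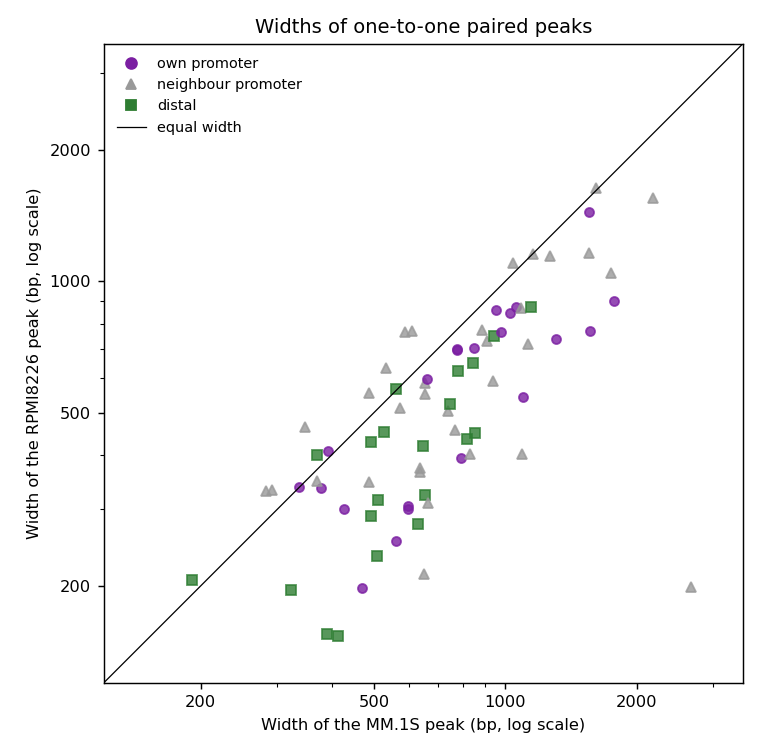
Width in bp of the 76 member peaks that match one to one between the lines, MM.1S on the horizontal and RPMI8226 on the vertical axis (both log scales), as promoter peaks of the gene itself (circles), promoter peaks of neighbours (triangles) and distal peaks (squares). Of the 76 pairs, 62 lie below the line of equal width, and the triangle at the far right is the WNT1 promoter peak of 2661 bp in the KMT2D window.

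In base composition the promoter peaks of the windows were richer in CpG than promoter peaks at large. Most of them, 51 in MM.1S and 52 in RPMI8226, were promoter peaks of neighbouring genes, against 31 and 27 of the regulators themselves. The regulators' own promoters were not measured apart. The median GC content of member promoter peaks was 63.5% in MM.1S and 62.1% in RPMI8226, against 59.3% and 58.0% over all promoter peaks. The median ratio of observed to expected CpG was 0.663 and 0.636, against 0.538 and 0.430. Distal member peaks had medians of 49.4% and 49.3% GC, against 47.7% and 47.8%. Most motifs were found about as often as in the lists. An ISRE match was found in 10 of 38 distal MM.1S peaks (26.3%, 15.0 to 42.0) and 25.6% of all distal MM.1S peaks, and in 8 of 33 distal RPMI8226 peaks (24.2%, 12.8 to 41.0) and 18.7% of all. For AP-1 the MM.1S values were 21.1% and 17.5%, and the RPMI8226 values 18.2% and 23.5%. The ETS consensus CCGGAAGT was found in 7 of 82 member promoter peaks in MM.1S (8.54%, 4.20 to 16.6), against 5.49%. The YY1 consensus AAGATGGCG was found in 6 of them (7.32%, 3.40 to 15.1), against 2.87%, so that the interval did not hold the share of the list. In the central 200 bp the YY1 consensus was found in 1 of the 82 (1.22%, 0.216 to 6.59), against 0.940%, and the interval held it. There the shares that fell outside were those of distal MM.1S peaks with CTCF, 6 of 38 (15.8%, 7.44 to 30.4) against 6.92%, and with NFY, 2 of 38 (5.26%, 1.46 to 17.3) against 21.2%. In RPMI8226 the matching intervals held the share of the list. The values there were 5.06% against 2.59% for YY1 in promoter peaks. In the central 200 bp of distal peaks they were 6.06% against 5.61% for CTCF and 15.2% against 21.2% for NFY. Which motif stands apart thus depended on the window and the line. Many intervals were computed, and no correction was made for their number. A match is a run of letters and not evidence that a factor was bound.

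Promoters were open in nearly all of the wider family of regulators as well. Of 36 other genes, 35 had a promoter peak of their own in MM.1S and 34 in RPMI8226. Among all protein-coding genes 76.8% and 71.8% did. DNMT3L, the catalytically inactive partner of the de novo DNA methyltransferases, had none in either line. TET1, a paralogue of TET2, had one in 9 of 9 MM.1S libraries and none in RPMI8226. The median gene had 4.77 peaks per 100 kb in MM.1S and 4.57 in RPMI8226. More peaks were found in MM.1S for 15 genes and in RPMI8226 for 14, and 7 held equal numbers. Of 35 genes with enough peaks for a ratio, none held at least 2 times as many in MM.1S and 1, KDM5C (named after its values were seen), did in RPMI8226, with 3 and 6. Over all protein-coding windows with enough peaks the shares were 6.93% and 7.59%. Densest in MM.1S were KMT5C with 11.1 peaks per 100 kb, KMT2B with 10.8 and MEN1, the menin scaffold of KMT2A and KMT2B complexes, with 10.2. Densest in RPMI8226 were EHMT2, an H3 lysine methyltransferase of silent chromatin, with 13.6, then MEN1 with 9.28 and KDM6B, a demethylase that removes the PRC2 mark, with 9.12. The 3 sparsest windows in MM.1S were those of KDM5A with 0.956, KDM6A with 1.47 and SMYD3 with 1.52, and in RPMI8226 those of KDM5A with 0.956, SUZ12 with 1.83 and KDM4A with 1.93. SUZ12, the PRC2 subunit that accompanies EZH2 and EZH1, had 3 peaks in each line, all shared and all called in every library.

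Promoters of cell type markers were looked up as well. All 10 plasma cell markers, among them PRDM1, IRF4, XBP1 and SDC1, had a promoter peak in both lines. For 9 of the 10 in each line it was called in every library, the exceptions being JCHAIN in MM.1S and SLAMF7 in RPMI8226. Over all protein-coding genes, 76.8% had a promoter peak of their own in MM.1S and 71.8% in RPMI8226, so that a promoter peak alone says little about cell type. Of 10 stromal markers, 5 had one in each line (COL1A1, COL1A2, PDGFRB, PDGFRA and DCN), and COL3A1, COL6A3, THY1, LUM and FAP had none. The 3 in every MM.1S library were COL1A1, PDGFRB and PDGFRA, and the 2 in every RPMI8226 library were COL1A1 and PDGFRB. A peak in every library includes the monocultures, which hold no HS5 cells. The study reports that a small residue of HS5 cells remained among the MM cells sorted from the lower chamber. The part that stromal chromatin may have in peaks of lower support was not tested.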

How the data were processed

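Omni-ATAC reads of 9 MM.1S and 5 RPMI8226 libraries were aligned to hg38 with Bowtie2 by the authors, who left out reads mapping to several places, kept a single read per position and called peaks with MACS3. The peak-calling threshold, the joining of peak borders and any shift for the transposase are not given in the sources used here. The deposited reference lists hold chromosome, start, end and a whole number without header, of a unit other than reads and not normalized by the authors. It was read as the number of libraries with the peak, since its range ran from the authors' minimum of 3 to the number of libraries. Starts were taken as 0-based, which the files do not state, and are printed 1-based.

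Peaks were intersected with GENCODE release 44 (Python 3.11.15, numpy 2.4.6). Windows were gene bodies plus 50 kb on each side. Promoters reached 2500 bp to both sides of every transcript start site, and peaks outside them were distal. Sharing required an overlap of 1 bp. The canonical transcript is the one that GENCODE marks as such. Windows are compared with those of 20033 protein-coding genes. Shares carry 95% Wilson intervals, which cover counting error over peaks only. Sequences were read from hg38, and motifs were searched as exact consensus letters on both strands, with overlapping matches allowed. Some sequences are not reported here. The overlap code was tested on simulated intervals. The lists give no value per library. Read totals stated in the study's supplement entered no value here, and the precision that depth gives was not estimated. Libraries could be neither compared nor left out in turn, and no test was made.

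Named were all 10 members. Of the 36 other regulators, those without a promoter peak of their own in a line and the 3 densest and 3 sparsest in each line were named. Regions named were the best supported promoter peak and the widest distal peak of a gene, line-only distal peaks called in all libraries, and runs of at least 3 consecutive line-only peaks, with other regions added after their values were seen. The genes and lists were chosen with earlier results of these data known. Alternatives were flanks of 0, 20 and 100 kb, promoters of 1000 and 5000 bp or of protein-coding transcripts alone, an overlap of 50% of both peaks, peaks called in every library, wide peaks, peaks nearest to the member, motifs in the central 200 bp of each peak, and each member left out.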

Additional observations from a re-analysis of the deposited data

How the results depend on the processing

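The number of MM.1S peaks in the windows, 120, became 54 in gene bodies alone, 78 with a 20 kb flank, 193 with a 100 kb flank, 65 with peaks called in every library, 70 with wide peaks (no narrower than the list's median) and 55 with peaks nearest to the member. For RPMI8226, 112 peaks became 42 in gene bodies, 60 with 20 kb, 188 with 100 kb, 69 with wide peaks and 41 with nearest peaks. These follow from the construction of each alternative. The share of shared MM.1S peaks, 68.3%, was 92.3% among peaks called in every library, 85.7% among wide peaks and 50.0% where the overlap had to cover 50% of both peaks. In the whole MM.1S list 81.3% of the peaks called in every library were shared. The RPMI8226 share, 78.6%, was 86.7% with a 20 kb flank, 88.0% among peaks called in every library (74.1% in the whole list), 87.0% among wide peaks, 53.6% with the 50% overlap and 58.0% against MM.1S peaks called in every library. The share called in every library was 80.0% among wide MM.1S peaks and 92.8% among wide RPMI8226 peaks. The distal share in MM.1S, 31.7%, was 42.6% in gene bodies, 23.1% among peaks called in every library, 22.9% among wide peaks, 43.6% among nearest peaks, 41.7% with promoters of 1000 bp and 51.7% with protein-coding transcripts alone. In RPMI8226, 29.5% became 39.4% with 100 kb, 21.7% among wide peaks, 43.8% with 1000 bp, 20.5% with 5000 bp and 48.2% with protein-coding transcripts. The difference for EZH2 turned from 5 to -2 peaks (20 against 22) with a 100 kb flank, and the cause was not tested. Differences of under 2 times changed sign for KMT2C, DOT1L and EZH1 among peaks called in every library (to -7, -3 and -1), for EZH1 (-2) and DNMT1 (1) among wide peaks, and for DNMT3B (1) in gene bodies, with a 20 kb flank and among nearest peaks. Leaving out any member moved none of these totals past 1.5 times or the interval. No paired analysis was possible because the lists hold no value per library.

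The lists hold no depth per library, the read totals of the study entered no value here, and the threshold of peak calling is not given in the sources used here. A peak needs 3 of 5 RPMI8226 libraries but 3 of 9 MM.1S libraries, so that the lists differ in the share of libraries required.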
